A study of Homo sapiens with 17 samples.

Results

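LNCaP-abl (abl) is an established line of human prostate cancer cells, a subline of the androgen-dependent line LNCaP that is kept in steroid-depleted medium and that the labels class as androgen independent. The comparison described here is between abl cells given an siRNA against CREB1 (siCREB1) and abl cells given a control siRNA (siControl), measured by RNA sequencing. The members were chosen by label: they are 2 of the 17 samples of the series, or 2 of its 6 RNA samples, and each has 2 count libraries, so that 4 of 12 count libraries are compared. Both groups were at passages 62 to 64 and received 40 nM siRNA for 3 days in RPMI 1640 medium with 5% charcoal-stripped serum, so that the control cells were also low in steroid hormone. LNCaP cells at passages 32 to 34 were given the same 2 siRNAs at the same dose, time and serum. They are described only where the response is compared between the lines. One cell line and 1 siRNA treatment per target stand behind every value. Whether the siRNA was 1 duplex or a pool is not given in the sources used here, and neither is whether the 2 libraries of a group came from separate cultures. The p-values therefore measure only the spread between libraries of a group, which may be technical. That spread was estimated from all 12 count libraries, those of LNCaP and of the siRNA against FOXA1 included.

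CREB1 is a leucine zipper transcription factor that binds the cyclic AMP response element (CRE). Protein kinase A phosphorylates it, after which it recruits the co-activators CREBBP and EP300, and the CRTC proteins are further co-activators. ATF4 belongs to the wider family and is the effector of the integrated stress response: it drives amino acid uptake, serine synthesis, tRNA charging and its own stress partners when amino acids run short or unfolded protein builds up in the endoplasmic reticulum (ER). Cyclic AMP signalling has been studied in prostate cancer cells for its links to androgen signalling and to neuroendocrine features.

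Reads assigned to genes numbered 37314039 and 9092597 in the siControl libraries and 22916312 and 25437588 in the siCREB1 libraries, so the second siControl library was the shallowest. Levels are given as CPM, read counts divided by the TMM-scaled library total, and are compared only within a gene. In each group the libraries differed by more than counting noise, with a chi-square per degree of freedom of 4.35 over 14232 genes for siControl and 6.33 over 14237 genes for siCREB1. Of 15550 genes tested, 51.2% were called changed at an adjusted p below 0.05 by edgeR's quasi-likelihood test. Those higher in siCREB1 made up 27.5% of the genes tested and those lower made up 23.7%, and 8.93% were called with a change of at least 1 on the log2 scale. Changes were mostly small: 2460 of the genes called higher and 1874 of those called lower moved by under 1.5-fold. The median log2 change of all tested genes was 0.03, with quartiles of -0.34 and 0.38. At a mean level below 1 CPM 15% of genes were called, and at 100 CPM or more 73%. A count of list members called has to be read against these shares. The libraries of the 2 groups did not overlap in 75.2% of the tested genes, and only 20 called genes overlapped. A lack of overlap in a named gene has to be read against that share.

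**Figure D1:**
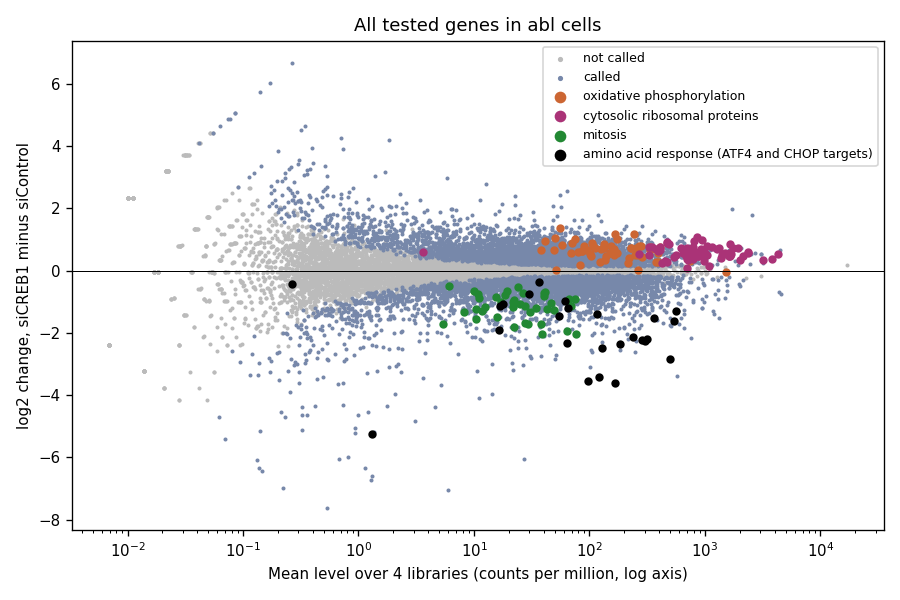
Log2 change after siCREB1 in abl (vertical axis) against the mean level over the 4 libraries in CPM (horizontal axis, log scale), 1 point per tested gene, with called genes in blue-grey and members of 4 gene lists in colour. Oxidative phosphorylation and ribosomal protein genes lie mostly above 0 at high levels, and mitosis and amino acid response genes lie below 0.

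The targeted gene fell in abl, and most of its family fell with it. CREB1 read 78.8 and 79.7 CPM in siControl and 46.3 and 43.9 CPM in siCREB1, a log2 change of -0.81 (SE 0.10, adjusted p = 9.1e-06). Both siCREB1 libraries lay below both siControl libraries, at 56.9% of the siControl mean. FOXA1, the target of the series' other siRNA, read 556 and 504 CPM in siControl and 529.5 and 547 CPM in siCREB1, and the groups overlapped (log2 change 0.02, adjusted p = 0.86). Of 22 CREB family members and partners tested, 16 fell and 5 rose, with a median of -0.48. Those that fell were 72.7%, beside 23.7% of all tested genes, and those that rose 22.7%, beside 27.5%.

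ATF4 fell from 1337 and 1305 CPM to 597 and 561 CPM, with no overlap and a log2 change of -1.19 (SE 0.058, adjusted p = 2.7e-09). ATF6, the ER membrane sensor that is cut to a transcription factor under ER stress, read 138 and 155 CPM in siControl and 51.0 and 48.2 CPM in siCREB1 (log2 change -1.56). ATF1, the closest relative of CREB1 with CREM, read 45.3 and 54.4 CPM in siControl and 25.6 and 25.2 CPM in siCREB1 (log2 change -0.95), and ATF3, a stress-induced family member, read 85.9 and 96.5 CPM in siControl and 41.9 and 36.6 CPM in siCREB1 (log2 change -1.21). The co-activator CREBBP read 165 and 157 CPM in siControl and 114 and 117 CPM in siCREB1 (log2 change -0.48, SE 0.13, adjusted p = 0.0063). CRTC2 was lower by a smaller amount, at -0.32, and was no longer called without siCREB1 library 2 (adjusted p = 0.0616).

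CREM, whose short form is a cyclic-AMP-induced repressor, moved the other way, from 15.7 and 14.6 to 20.01 and 22.0 CPM (log2 change 0.46, SE 0.10, adjusted p = 0.0017). The short form cannot be told from the full gene in counts per gene. CREB5 read 0.5001 and 0.446 CPM in siControl and 1.26 and 1.30 CPM in siCREB1, a low level with a log2 change of 1.38 (SE 0.28, adjusted p = 0.0009). CRTC1 (log2 change 0.38), CREB3L4 (log2 change 0.35) and JUND (log2 change 0.42) were the other members called higher. JUND was no longer called with DESeq2 (adjusted p = 0.145) or with DESeq2's size factors in edgeR (adjusted p = 0.0553). Its call was also lost without siControl library 2, siCREB1 library 1 or siCREB1 library 2 (log2 change 0.25, 0.50 and 0.36). ATF7 was the member not called (log2 change -0.091). JUND, CRTC1, CREB3L4 and ATF7 lie outside the rule for named genes: they, and the genes named below only to complete a small count, were named after their values were seen.

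Of 27 genes for cyclic AMP and protein kinase A tested, the machinery upstream of CREB1, 6 rose and 8 fell, with a median of 0.018. These shares, 22.2% and 29.6%, lay near the 27.5% and 23.7% over all tested genes. PRKACA, the main catalytic subunit of the kinase, read 89.0 and 86.6 CPM in siControl and 84.4 and 93.5 CPM in siCREB1 and did not pass the test (log2 change 0.018, adjusted p = 0.86). The regulatory subunit PRKAR1A fell from 328 and 326 to 222 and 223 CPM (log2 change -0.56), while another regulatory subunit, PRKAR1B, rose from 11.8 and 9.81 to 28.03 and 29.5 CPM (log2 change 1.36). The adenylyl cyclase ADCY1 rose from 13.3 and 14.6 to 24.97 and 27.1 CPM (log2 change 0.92) and the phosphodiesterase PDE9A from 15.2 and 15.2 to 29.9 and 32.5 CPM (log2 change 1.04). In these 4 genes that changed, the libraries of the groups did not overlap.

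Genes listed as responsive to cyclic AMP did not move in one direction. Of 24 tested, 8 rose and 3 fell, with a median of -0.12 that was above 0 under some settings (range -0.17 to 0.24 over the settings), and the count that rose was 5 without siCREB1 library 1. FOS read 3.44 and 2.79 CPM in siControl and 2.93 and 2.39 CPM in siCREB1 (log2 change -0.29, adjusted p = 0.34) and PER1 read 19.3 and 16.9 CPM in siControl and 19.6 and 20.9 CPM in siCREB1 (log2 change 0.14, adjusted p = 0.32), and neither passed the test. NR4A1, an early-response nuclear receptor, read 6.03 and 5.57 CPM in siControl and 8.52 and 9.68 CPM in siCREB1 (log2 change 0.63, SE 0.13, adjusted p = 0.001), but was not called in libraries thinned to the shallowest one (adjusted p = 0.137). DUSP1, a phosphatase of MAP kinases, rose from 19.3 and 13.9 to 51.6 and 41.8 CPM (log2 change 1.42, SE 0.14, adjusted p = 1.6e-06). The list had 33.3% of its members higher and 12.5% lower, beside 27.5% and 23.7% over all tested genes. The members that fell were PCK2, BCL2 and EGR1. PCK2 is the mitochondrial enzyme described below with the amino acid response genes. The cause of its fall was not tested. EGR1 was at 1.53 and 1.23 CPM in siControl and 0.811 and 0.324 CPM in siCREB1, and lost its call without siControl library 1 (adjusted p = 0.188), without siCREB1 library 2 (adjusted p = 0.117) and in thinned libraries (adjusted p = 0.321).

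The amino acid response, the set of ATF4 and CHOP targets, fell almost whole. Of 25 genes tested, 24 were called lower (96%, beside 23.7% of all tested genes) and 0 higher. The median was -1.92, against 0.03 over all tested genes. The count stayed between 23 and 24 under all settings tried. The member not called, CDSN, was at or below 0.361 CPM in every library. Some genes stand on more than 1 list, as ASNS does here and among serine and one-carbon genes, so the lists are not independent of each other.

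ADM2, a secreted peptide of the adrenomedullin family, read 307 and 312 CPM in siControl and 27.6 and 23.5 CPM in siCREB1, a fall of 12.1-fold. CHAC1, which degrades glutathione, read 180.2 and 177 CPM in siControl and 17.1 and 13.2 CPM in siCREB1, 11.8-fold lower. DDIT3, which encodes the stress factor CHOP, read 275 and 344 CPM in siControl and 62.8 and 56.2 CPM in siCREB1 (log2 change -2.37, SE 0.11, adjusted p = 2.4e-09). In these genes both siCREB1 libraries lay far below both siControl libraries.

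ASNS, the asparagine synthetase, went from 463 and 529.6 to 106 and 98.9 CPM (log2 change -2.27, SE 0.078, adjusted p = 1.8e-10). PCK2, the mitochondrial PEP carboxykinase, went from 819.6 and 925 to 122 and 119 CPM (log2 change -2.85, SE 0.074, adjusted p = 2.6e-11). SESN2, which restrains the growth kinase mTORC1 when leucine is short, read 214 and 224 CPM in siControl and 43.0 and 35.0 CPM in siCREB1 (log2 change -2.49). VEGFA, an angiogenic growth factor that also belongs to the hypoxia list, read 365 and 415 CPM in siControl and 90.4 and 86.0 CPM in siCREB1 (log2 change -2.14). FGF21, a secreted metabolic hormone, had 123 counts summed over siControl and 3 over siCREB1, a ratio of 42.7 with an exact interval of 14.3 to 210.1 at 95% that covers counting error only. No library of one group overlapped the other in any of these genes.

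Promoter sequence was read for the called genes named here, to show what the strongest falls and rises carry upstream. Windows of 250 bases before the start, from RefSeq on GRCh38.p14, were searched on both strands for the full CRE, TGACGTCA, for its shorter core TGACG, and for TGATGNAA, the shape of the C/EBP-ATF site of amino acid response genes. The full CRE contains the core. A gene had 1.459 windows on average, and a match in any of them counted. A match is only a run of letters, not a measured site. The 6 named genes of largest change with the full CRE or TGATGNAA are shown with 25 bases on each side and the match in capitals.
S100P: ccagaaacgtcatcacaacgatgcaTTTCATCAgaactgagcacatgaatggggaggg
FGF21: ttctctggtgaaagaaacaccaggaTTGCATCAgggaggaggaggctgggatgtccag
CHAC1: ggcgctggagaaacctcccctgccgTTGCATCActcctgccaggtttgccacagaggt
ASNS: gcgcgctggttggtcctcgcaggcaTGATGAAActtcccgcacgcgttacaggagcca
DUSP1: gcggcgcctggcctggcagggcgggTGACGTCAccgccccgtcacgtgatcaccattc
MAF: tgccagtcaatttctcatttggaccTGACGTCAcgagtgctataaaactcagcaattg

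The windows shown lie at chr4:6693730-6693787 for S100P, chr19:48755445-48755502 for FGF21 and chr15:40953237-40953294 for CHAC1, all on the plus strand. Those of ASNS, DUSP1 and MAF lie on the minus strand at chr7:97872444-97872501, chr5:172771288-172771345 and chr16:79600750-79600807. All lie upstream of the annotated start used. The S100P, FGF21, CHAC1 and ASNS windows hold TGATGNAA in one orientation or the other, at 123, 54, 209 and 68 bases before the start, and these genes fell. The DUSP1 and MAF windows hold the full CRE, at 125 and 45 bases before the start, and these genes rose. Neither match went with one direction among the other named genes that hold it. CREB5 (log2 change 1.38) and RPL31 (log2 change 0.96) hold TGATGNAA and rose, while ATF3 (log2 change -1.21) holds it and fell. EEF2 (log2 change -0.68) and PRKAR1A (log2 change -0.56) hold the full CRE and fell, while RPL3 (log2 change 0.54) and CREM (log2 change 0.46) hold it and rose. MAF was at 0.833 and 0.446 CPM in siControl and 2.21 and 1.82 CPM in siCREB1.

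Among 23 amino acid response genes with a window, 7 held TGATGNAA, or 30.4%, beside 2.5% of the 11597 tested genes with a window. That shape is the one known from genes of this kind, so a high share was built into the list and is no separate result. For the full CRE the count was 1 of 23, or 4.35%, beside 3.25%, and for the core TGACG it was 8 of 23, or 34.8%, beside 34.4%. In the mitosis list 3 of 36 genes with a window held the full CRE, and in the DNA replication list 3 of 34. Windows were matched for 586 of the 772 genes called at least 1 log2 lower and for 434 of the 616 called at least 1 log2 higher. Those sets, and the 15550 tested genes of which 11597 had a window, were matched at under 80%. A comparison of these sets or of the lists above with the tested genes is therefore void, and the shares describe only the genes matched.

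Genes that bring amino acids into the cell fell strongly. Of 18 transporters tested, 11 fell (61.1%, beside 23.7% of all tested genes) and 3 rose (16.7%, beside 27.5%), with a median of -1.22. SLC7A11, which imports cystine, read 967 and 1122 CPM in siControl and 114 and 86.9 CPM in siCREB1, 10.4-fold lower. SLC6A9, a glycine transporter, read 174 and 186 CPM in siControl and 20.1 and 22.1 CPM in siCREB1 (log2 change -3.09, SE 0.10, adjusted p = 1.1e-10). SLC1A4, a carrier of neutral amino acids such as serine, read 47.9 and 46.7 CPM in siControl and 5.86 and 5.67 CPM in siCREB1 (log2 change -3.04, SE 0.13, adjusted p = 6.9e-10). SLC7A5, the light chain of the large neutral amino acid exchanger, went from 1209 and 1240.2 to 289.8 and 259 CPM (log2 change -2.16). The 3 that rose were SLC36A1, a lysosomal carrier (41.4 and 37.0 to 102 and 96.4 CPM, log2 change 1.32), SLC7A8 (log2 change 0.66) and SLC38A9, the lysosomal arginine sensor (log2 change 0.61).

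Serine and one-carbon genes fell more often than they rose. Of 21 genes tested, 13 fell (61.9%, beside 23.7% of all tested genes) and 4 rose (19%, beside 27.5%), with a median of -0.75. PHGDH, the entry enzyme of serine synthesis, went from 1735 and 1757 to 646 and 674 CPM (log2 change -1.40, SE 0.055, adjusted p = 5.1e-10), one of the 5 largest losses in CPM of any gene. The mitochondrial folate enzymes MTHFD2 (399 and 455 CPM in siControl and 70.4 and 69.0 CPM in siCREB1, log2 change -2.61) and ALDH1L2 (51.6 and 58.0 CPM in siControl and 7.75 and 7.70 CPM in siCREB1, log2 change -2.82) fell further, with no overlap between the groups. Those that rose included SHMT1 (log2 change 0.84) and MTHFD1 (log2 change 0.54), both cytosolic folate enzymes, and TYMS, the thymidylate synthase (log2 change 0.45). TYMS lost its call without siCREB1 library 1 (adjusted p = 0.0901).

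Among the cytosolic tRNA synthetases, which load amino acids onto tRNA, 12 of 20 fell and 5 rose, with a median of -0.65. The share that fell was 60%, beside 23.7% of all tested genes, and the share that rose, 25%, lay near 27.5%. WARS, for tryptophan, read 372 and 391 CPM in siControl and 105 and 102 CPM in siCREB1 (log2 change -1.88, SE 0.061, adjusted p = 1.3e-10). GARS, for glycine, read 772 and 803 CPM in siControl and 229 and 229 CPM in siCREB1 (log2 change -1.78), and SARS, for serine, read 889 and 950.3 CPM in siControl and 285 and 269 CPM in siCREB1 (log2 change -1.73). The count of 12 falls held under every setting tried. Among the rises DARS and KARS were not called with DESeq2 (adjusted p = 0.0805 and 0.0914). HARS and KARS were not called in thinned libraries (adjusted p = 0.0539 and 0.0881), nor KARS with the 4 abl libraries alone (adjusted p = 0.0693). The 5 that rose were QARS (log2 change 0.60), FARSA (log2 change 0.53), HARS (log2 change 0.24), DARS (log2 change 0.17) and KARS (log2 change 0.16). Their number was 3 when any library but siCREB1 library 2 was left out.

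**Figure D2:**
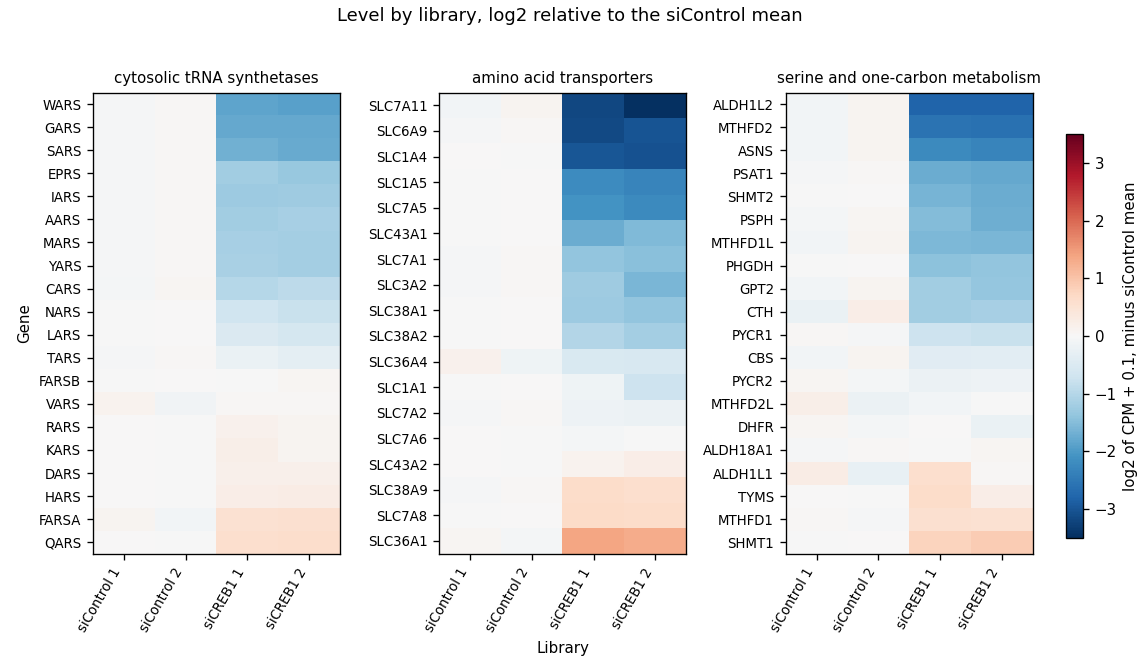
Level of tested genes in the 4 libraries, as log2 of CPM + 0.1 minus the siControl mean (colour scale, log2), for members of 3 gene lists ordered by change. The 2 siCREB1 columns are alike within each list: 12 tRNA synthetases, 11 transporters and 13 serine and one-carbon genes were called lower, and the genes at the foot of each panel were higher.

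Genes for protein folding and for transport through the secretory pathway also fell. Of 26 ER chaperone and folding genes tested, 21 fell (80.8%) and 1 rose (3.85%), with a median of -0.91. The 32 Golgi and secretory transport genes gave 19 falls (59.4%) and 3 rises (9.38%), with a median of -0.27. Over all tested genes 23.7% fell and 27.5% rose. HSPA5, the main ER chaperone, went from 1698 and 1675 to 736 and 626 CPM (log2 change -1.31, SE 0.081, adjusted p = 2.8e-08). HYOU1, its exchange factor, read 1015 and 1049 CPM in siControl and 311 and 269 CPM in siCREB1 (log2 change -1.83). XBP1, the factor that drives folding and secretory genes, read 397 and 413 CPM in siControl and 171 and 168 CPM in siCREB1 (log2 change -1.26), and ERN1, the sensor that splices XBP1 RNA, read 78.8 and 90.6 CPM in siControl and 22.0 and 21.5 CPM in siCREB1 (log2 change -1.95). ERO1LB, an oxidase for disulphide bonds, read 31.8 and 33.3 CPM in siControl and 8.20 and 10.2 CPM in siCREB1 (log2 change -1.81).

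EIF2AK3, the ER kinase PERK that raises ATF4 translation, was the member that rose, from 74.5 and 63.5 to 115.8 and 104 CPM (log2 change 0.65, SE 0.088, adjusted p = 3.3e-05). In the secretory list SEC24D, a cargo adaptor of the COPII coat, read 395 and 388 CPM in siControl and 174 and 166 CPM in siCREB1 (log2 change -1.20). COPB1 of the COPI coat read 443 and 451 CPM in siControl and 239.9 and 235 CPM in siCREB1 (log2 change -0.91), and KDELR2, which returns ER proteins from the Golgi, read 458 and 444 CPM in siControl and 242 and 249.8 CPM in siCREB1 (log2 change -0.88). TMED9 (log2 change 0.36), COPE (log2 change 0.28) and SEC13 (log2 change 0.21) were called higher, and without siControl library 2 or siCREB1 library 2 COPE (adjusted p = 0.319 and 0.187) and SEC13 (adjusted p = 0.0518 and 0.106) were not, which left 1 rise. SEC13 was also not called without siControl library 1 (adjusted p = 0.0573).

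Most genes of the ribosome and of the respiratory chain rose. Of 72 cytosolic ribosomal protein genes tested, 70 rose (97.2%, beside 27.5% of all tested genes) and 0 fell. Their median was 0.57 and their range 0.072 to 1.08. Of 55 oxidative phosphorylation genes tested, 51 rose (92.7%) and 0 fell, with a median of 0.66. Their range was -0.034 to 1.36, and 6 of them rose by at least 1 log2. Under the other settings 66 to 70 and 49 to 52 were called higher and 0 lower, and the median of all genes was 0.0084 and 0.034 under the 2 other scalings of edgeR.

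RPL23 went from 557 and 529.7 to 1164 and 1133 CPM (log2 change 1.08, SE 0.073, adjusted p = 6.3e-08), RPS27 from 626 and 638 to 1219 and 1275 CPM (log2 change 0.98), and RPL31 from 529 and 566 to 1086 and 1049.6 CPM (log2 change 0.96). RPL3 was among the 5 largest gains in CPM, at 3618 and 3357 CPM in siControl and 5291 and 4865 CPM in siCREB1 (log2 change 0.54). Ribosomal protein genes have many processed pseudogene copies, so their counts depend on how the authors' mapping treated such reads. RPL28 (log2 change 0.072) and RPL10 (log2 change 0.15) were the members not called. EEF2, the elongation factor that moves the ribosome along the message, went the other way, from 5819 and 5009.8 to 3454 and 3287 CPM (log2 change -0.68, SE 0.10, adjusted p = 5.2e-05).

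NDUFB8 of complex I read 31.0 and 31.3 CPM in siControl and 76.1 and 83.3 CPM in siCREB1 (log2 change 1.36, SE 0.073, adjusted p = 7.1e-09). NDUFA4 read 149.6 and 151 CPM in siControl and 337 and 343 CPM in siCREB1 (log2 change 1.18), and COX6B1 of complex IV read 101 and 104 CPM in siControl and 233 and 229.7 CPM in siCREB1 (log2 change 1.17). The libraries of the groups stood apart in each of these. The 4 members not called were NDUFS8 (log2 change 0.19), NDUFS1 (log2 change 0.027), NDUFB5 (log2 change 0.011) and ATP5B (log2 change -0.034). NDUFS8 was called without siControl library 1, at 0.40 (adjusted p = 0.0233).

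**Figure D3:**
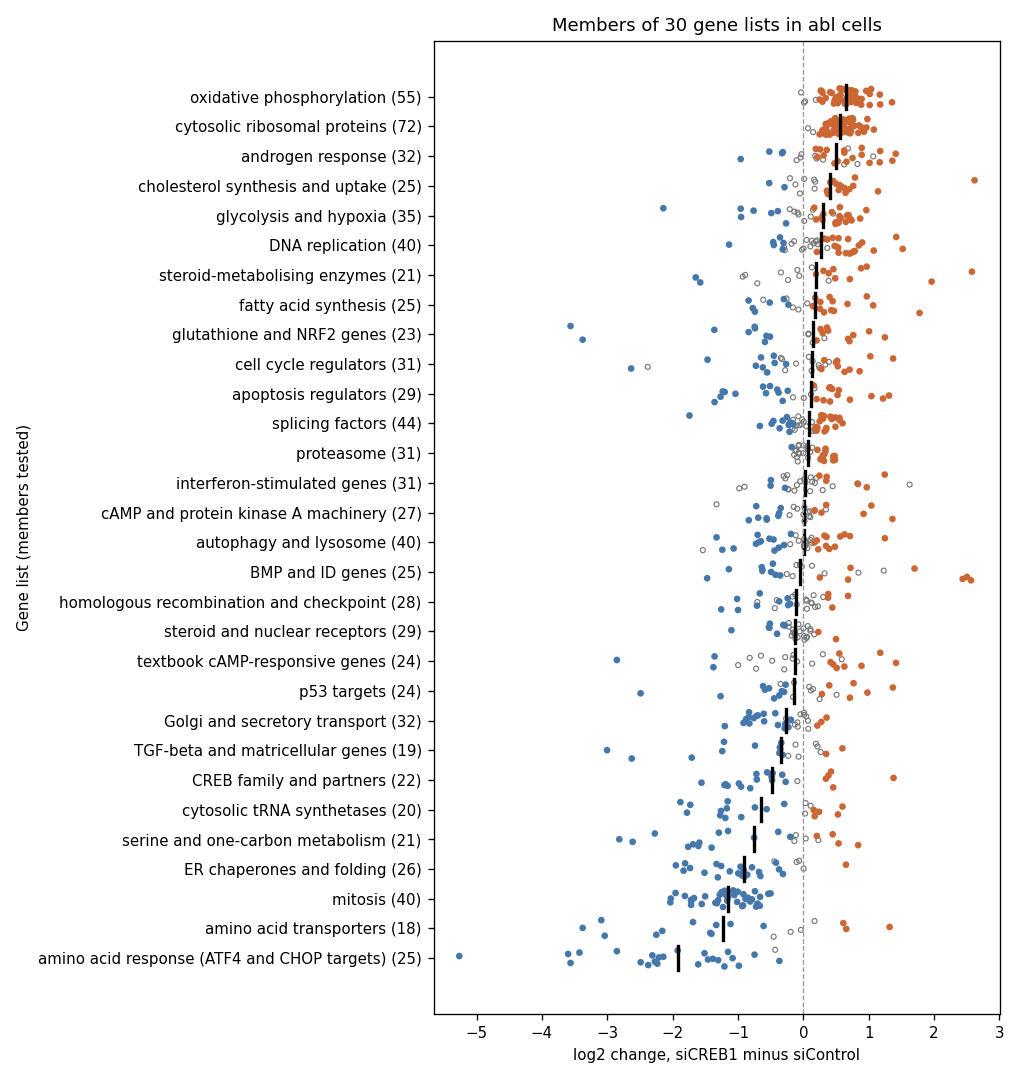
Log2 change after siCREB1 in abl for every tested member of 30 gene lists (points; filled blue, called lower; filled orange, called higher; open, not called), with the list's median as a black bar and the number tested in brackets. Medians run from -1.92 for the amino acid response to 0.66 for oxidative phosphorylation, and most lists between them hold members on both sides of 0.

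Mitosis genes fell and DNA replication genes on balance did not. All 40 mitosis genes tested were called lower, beside 23.7% of all tested genes, with a median of -1.15. Under the other settings the count ranged from 37 to 40. CENPF, a kinetochore protein, read 127 and 117 CPM in siControl and 34.6 and 25.3 CPM in siCREB1 (log2 change -2.04, SE 0.14, adjusted p = 8e-08). TOP2A, the topoisomerase that separates sister chromatids, read 98.6 and 105 CPM in siControl and 31.5 and 20.9 CPM in siCREB1 (log2 change -1.95), and KIF2C, a microtubule depolymerase, read 64.4 and 59.2 CPM in siControl and 17.9 and 12.6 CPM in siCREB1 (log2 change -2.03). The core mitotic pair CCNB1 (101 and 97.2 CPM in siControl and 59.9 and 44.8 CPM in siCREB1, log2 change -0.92) and CDK1 (54.0 and 48.4 CPM in siControl and 35.3 and 28.4 CPM in siCREB1, log2 change -0.70) fell less. In each of these genes siCREB1 library 2 was the lowest of the 4.

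Of 40 DNA replication genes, 20 rose (50%, beside 27.5% of all tested genes) and 6 fell (15%, beside 23.7%), with a median of 0.27. PCNA, the sliding clamp, read 57.6 and 53.6 CPM in siControl and 84.9 and 74.6 CPM in siCREB1 (log2 change 0.51, SE 0.075, adjusted p = 6.9e-05). GINS2 of the replicative helicase read 2.53 and 3.34 CPM in siControl and 9.19 and 6.64 CPM in siCREB1 (log2 change 1.52) and UHRF1, which maintains DNA methylation, read 4.83 and 5.57 CPM in siControl and 14.0 and 13.1 CPM in siCREB1 (log2 change 1.42). POLE, a replicative polymerase, fell from 139.6 and 169 to 73.1 and 66.4 CPM (log2 change -1.14). Among 31 cell cycle regulators 10 rose and 9 fell, with a median of 0.13. Their shares, 32.3% and 29%, lay near the 27.5% and 23.7% over all tested genes. FOXM1, a driver of mitosis genes, fell (53.6 and 49.6 CPM in siControl and 36.1 and 30.2 CPM in siCREB1, log2 change -0.65), as did CCND1 (216 and 174 CPM in siControl and 132 and 135 CPM in siCREB1, log2 change -0.55) and E2F7 (log2 change -1.47), while MYB rose (6.001 and 5.68 CPM in siControl and 14.5 and 16.1 CPM in siCREB1, log2 change 1.37). E2F1 was called at 0.4996 (adjusted p = 0.043), but lost the call when any 1 of the 4 libraries was left out (adjusted p from 0.0936 to 0.146) and with DESeq2 (adjusted p = 0.09). CDK6 had 13 counts summed over siControl and 2 over siCREB1, a ratio of 6.78 with a counting interval of 1.53 to 61.8, and lost its call without siCREB1 library 2 (adjusted p = 0.0651).

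Of 28 homologous recombination and checkpoint genes, 9 fell and 4 rose, with a median of -0.11, and 5 fell when siControl library 1 was left out. BRCA2 (8.61 and 10.0 CPM in siControl and 4.33 and 3.32 CPM in siCREB1, log2 change -1.26), BRCA1 (28.4 and 25.6 CPM in siControl and 15.7 and 11.7 CPM in siCREB1, log2 change -0.9996) and ATM (65.6 and 62.7 CPM in siControl and 32.6 and 31.2 CPM in siCREB1, log2 change -1.01) fell. CLSPN (log2 change 0.68), CHEK1 (log2 change 0.38) and XRCC3 (log2 change 0.38) rose. The list had 32.1% of its members lower and 14.3% higher, beside 23.7% and 27.5% over all tested genes. CLSPN lost its call without siControl library 1 (adjusted p = 0.139).

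Genes for cholesterol synthesis and uptake were more often higher than lower. Of 25 tested, 16 rose (64%, beside 27.5% of all tested genes) and 2 fell (8%, beside 23.7%), with a median of 0.41. MVD, the mevalonate decarboxylase, read 32.8 and 26.3 CPM in siControl and 62.2 and 71.8 CPM in siCREB1 (log2 change 1.14, SE 0.10, adjusted p = 4.3e-07), and ACAT2 read 36.6 and 33.1 CPM in siControl and 62.9 and 59.0 CPM in siCREB1 (log2 change 0.79). SREBF2, the pathway's transcription factor, read 418 and 396 CPM in siControl and 397 and 426 CPM in siCREB1 and did not pass the test (log2 change 0.014, adjusted p = 0.89). SC5DL (log2 change -0.52) and CYP51A1 (log2 change -0.29) fell.

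Among 25 fatty acid genes, 13 rose and 6 fell, with a median of 0.17, and 8 rose when siControl library 2 was left out. FASN, the fatty acid synthase, read 1329 and 991 CPM in siControl and 3151 and 4822 CPM in siCREB1 (log2 change 1.78, SE 0.22, adjusted p = 1.4e-05), one of the 5 largest gains in CPM, and the 2 siCREB1 libraries lay further apart than the siControl libraries. DGAT2, which makes triglyceride, read 14.6 and 16.05 CPM in siControl and 33.2 and 25.9 CPM in siCREB1 (log2 change 0.97). SREBF1, a transcription factor of fatty acid genes, read 578 and 484 CPM in siControl and 655 and 797 CPM in siCREB1 (log2 change 0.45, SE 0.11, adjusted p = 0.0049) and lost its call without siControl library 2 (adjusted p = 0.0638) or siCREB1 library 2 (adjusted p = 0.0699). ELOVL2 was called at 1.07 with edgeR and not with DESeq2 (adjusted p = 0.0564). Of the fatty acid list 52% was higher, beside 27.5% of all tested genes. The share that was lower, 24%, lay near the 23.7% over all tested genes.

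Androgen response genes rose more often than they fell. Of 32 tested, 18 rose (56.2%, beside 27.5% of all tested genes) and 4 fell (12.5%, beside 23.7%), with a median of 0.50. KLK3, which encodes PSA, was near the detection limit in abl, at 0.361 and 0.111 CPM in siControl and 0.496 and 0.608 CPM in siCREB1, and did not pass the test (log2 change 0.83, adjusted p = 0.45). TMPRSS2 rose from 88.3 and 68.9 to 158 and 165 CPM (log2 change 1.01, SE 0.089, adjusted p = 6e-07), and PMEPA1 from 6.31 and 2.01 to 15.3 and 11.3 CPM (log2 change 1.36). NDRG1 (log2 change -0.96), TPD52 (log2 change -0.52), MPHOSPH9 (log2 change -0.33) and UAP1 (log2 change -0.31) fell. MPHOSPH9 lost its call without siControl library 1 (adjusted p = 0.0568) or siCREB1 library 2 (adjusted p = 0.064). SGK1 was called at 1.18 but not without siControl library 1 (adjusted p = 0.0857) or siCREB1 library 1 (adjusted p = 0.076).

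Of 29 nuclear receptors and their co-regulators, 7 fell and 2 rose, with a median of -0.12. The share that fell, 24.1%, lay near the 23.7% over all tested genes, and the share that rose was 6.9%, beside 27.5%. NR1D2, a clock repressor, read 54.1 and 56.9 CPM in siControl and 26.05 and 25.5 CPM in siCREB1 (log2 change -1.10), NR2C2 -0.53 and NR2F2 -0.52 on the log2 scale. The glucocorticoid receptor NR3C1 read 88.4 and 105 CPM in siControl and 142 and 129 CPM in siCREB1 (log2 change 0.4999, SE 0.092, adjusted p = 0.00045). PPARD (log2 change 0.23) lost its call without siControl library 2 (adjusted p = 0.114) or siCREB1 library 1 (adjusted p = 0.135), which left 1 rise. Of 21 steroid-metabolising enzymes, 10 rose (47.6%, beside 27.5% of all tested genes) and 2 fell (9.52%, beside 23.7%), with a median of 0.19. Fewer of them rose without siControl library 1, siControl library 2 or siCREB1 library 1. AKR1C3, which makes androgen from weaker precursors, was at 0.361 and 0.111 CPM in siControl and 1.31 and 1.13 CPM in siCREB1 (log2 change 1.96, SE 0.50, adjusted p = 0.0047). HSD3B1 had 3 counts summed over siControl and 20 over siCREB1, a ratio of 6.40 with a counting interval of 1.90 to 33.6, and lost its call without siControl library 1 (adjusted p = 0.252) and with DESeq2 (adjusted p = 0.0854). The 2 that fell were UGT2B17 (log2 change -1.65), which lost its call without siCREB1 library 2 (adjusted p = 0.0531) and with DESeq2 (adjusted p = 0.0791), and AKR1C2 (log2 change -1.58), which lost its call in thinned libraries (adjusted p = 0.118). The UGT2B and AKR1C genes have near-identical relatives, so their counts are uncertain.

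Of 25 BMP and ID genes 7 rose and 8 fell, with a median of -0.053. These shares, 28% and 32%, lay near those over all tested genes, 27.5% and 23.7%. Among the largest rises of the list were ID1 and ID3, which encode partners that keep helix-loop-helix proteins off DNA. BMPR1B, with few counts, lay between them (log2 change 2.50). ID1 read 19.9 and 16.05 CPM in siControl and 142 and 78.8 CPM in siCREB1 (log2 change 2.57, SE 0.44, adjusted p = 0.00025) and ID3 read 18.3 and 15.6 CPM in siControl and 119.7 and 69.1 CPM in siCREB1 (log2 change 2.44, SE 0.39, adjusted p = 0.00013). In both genes siCREB1 library 1 was well above library 2 and both were above siControl. BMPR1B had 2 counts summed over siControl and 13 over siCREB1, a ratio of 6.24 with a counting interval of 1.41 to 56.9, and lost its call without siControl library 1 (adjusted p = 0.437) or siCREB1 library 1 (adjusted p = 0.0528). In the list 4 genes rose when siCREB1 library 1 was left out, and 5 fell when siCREB1 library 2 was.

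TGF-beta and matricellular genes were lower more often: 10 of 19 fell (52.6%, beside 23.7% of all tested genes) and 2 rose (10.5%, beside 27.5%). Their median was -0.34. THBS1, a matrix protein that activates TGF-beta, read 24.9 and 25.9 CPM in siControl and 3.56 and 2.75 CPM in siCREB1, 8.02-fold lower. TGFBR1, the type I receptor, read 23.1 and 24.3 CPM in siControl and 7.03 and 7.37 CPM in siCREB1 (log2 change -1.71, SE 0.10, adjusted p = 2.6e-08). TGFB3 had a mean below 1 CPM in both groups and lost its call without siCREB1 library 1 (adjusted p = 0.0524). SMAD3 (log2 change 0.35) and CYR61 (log2 change 0.60) rose, and CYR61 lost its call without siControl library 1, siControl library 2 or siCREB1 library 2 (adjusted p from 0.0559 to 0.224), which left 1 rise in the last 2 cases.

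Glutathione and NRF2 genes divided, with 10 of 23 higher and 9 lower and a median of 0.14. These shares were 43.5% and 39.1%, beside 27.5% and 23.7% over all tested genes. NFE2L2, the NRF2 factor itself, fell from 114 and 124 to 44.6 and 47.8 CPM (log2 change -1.36, SE 0.064, adjusted p = 2e-09), and GCLM, a subunit of the first enzyme of glutathione synthesis, fell from 74.3 and 76.6 to 50.4 and 49.8 CPM (log2 change -0.59). FTH1, the ferritin heavy chain, was one of the 5 largest losses in CPM, at 5645 and 5729 CPM in siControl and 3423 and 3389.7 CPM in siCREB1 (log2 change -0.74). Glycolysis and hypoxia genes gave 20 of 35 higher (57.1%) and 7 lower (20%), with a median of 0.30. EGLN3, an oxygen-sensing hydroxylase, rose from 22.7 and 19.1 to 44.9 and 38.6 CPM (log2 change 0.96). HIF1A was called at 0.17, but not with DESeq2 (adjusted p = 0.0869), with DESeq2's size factors in edgeR (adjusted p = 0.0622) or with the 4 abl libraries alone (adjusted p = 0.0622). It also lost the call without siControl library 1 or without either siCREB1 library (log2 change from 0.13 to 0.18).

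Apoptosis regulators changed in both directions, with 13 of 29 higher and 12 lower and a median of 0.12. These shares were 44.8% and 41.4%, beside 27.5% and 23.7% over all tested genes. BCL2, which blocks apoptosis, fell from 9.53 and 9.47 to 3.43 and 3.97 CPM (log2 change -1.36, SE 0.16, adjusted p = 8.5e-06), and PMAIP1, which promotes it, fell from 12.001 and 13.3 to 5.50 and 4.86 CPM (log2 change -1.27). BIK, another promoter of apoptosis, rose from 7.501 and 3.79 to 16.9 and 14.9 CPM (log2 change 1.31). Of 24 p53 targets 6 rose and 10 fell, with a median of -0.15, and 6 fell without siControl library 1 or without siCREB1 library 2. CDKN1A, the cell cycle inhibitor p21, read 225 and 203 CPM in siControl and 330.0 and 179.9 CPM in siCREB1, with the siCREB1 libraries on either side of siControl (log2 change 0.25, adjusted p = 0.44). Without siCREB1 library 1 its change was -0.25 and it was not called, and without library 2 it was 0.63 and was called (adjusted p = 0.0462). MDM2, which degrades p53, fell from 200.4 and 185 to 153 and 131 CPM (log2 change -0.45). BTG2 rose from 23.6 and 21.1 to 69.3 and 48.3 CPM (log2 change 1.37). Of the p53 list 25% was higher and 41.7% lower, beside 27.5% and 23.7% over all tested genes.

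Interferon-stimulated genes were called at 6 of 31 higher and 3 lower, with a median of 0.032. These shares, 19.4% and 9.68%, lay below the 27.5% and 23.7% over all tested genes. CMPK2 rose from 2.42 and 1.78 to 5.63 and 5.10 CPM (log2 change 1.25). OAS1 (log2 change 0.84) and IFI44 (log2 change 0.97) were called, but not without siControl library 1, siControl library 2 or siCREB1 library 1 (adjusted p from 0.053 to 0.306), and 3 genes of the list rose when siCREB1 library 1 was left out. ISG20 (log2 change -0.50), IRF1 (log2 change -0.50) and IFI35 (log2 change -0.28) fell. ISG20 lost its call without siControl library 1 or siCREB1 library 2 (adjusted p = 0.177 and 0.0887), IRF1 without siCREB1 library 2 (adjusted p = 0.0629), and IFI35 without siControl library 2 or siCREB1 library 1 (adjusted p = 0.105 and 0.119). Of the list, 1 gene fell when siCREB1 library 2 was left out.

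Of 31 proteasome subunits 13 rose (41.9%, beside 27.5% of all tested genes) and 1 fell (3.23%, beside 23.7%), with a median of 0.074 and with PSMA4 (223 and 227 CPM in siControl and 315 and 315 CPM in siCREB1, log2 change 0.48), PSMB4 (log2 change 0.48) and PSMA3 (log2 change 0.46) the highest. The 1 that fell, PSMD8 (log2 change -0.18), lost its call without siControl library 1 or without either siCREB1 library (adjusted p from 0.0686 to 0.178). Of 44 splicing factors 19 rose (43.2%, beside 27.5% of all tested genes) and 11 fell (25%, beside 23.7%), with a median of 0.090. With siCREB1 library 2 left out 12 rose, and 6 and 5 fell with siControl library 1 and siCREB1 library 1 left out. ESRP1, an epithelial splicing regulator, went from 181 and 208 to 56.3 and 59.4 CPM (log2 change -1.74, SE 0.078, adjusted p = 1.4e-09), HNRNPH1 from 297 and 313 to 191 and 193 CPM (log2 change -0.66) and SF3A3 from 56.0 and 56.7 to 85.7 and 85.1 CPM (log2 change 0.60). Of 40 autophagy and lysosome genes 12 rose and 13 fell, with a median of 0.015. These shares, 30% and 32.5%, lay near the 27.5% and 23.7% over all tested genes. MAP1LC3B, an autophagosome membrane protein, fell from 136 and 149 to 59.7 and 60.5 CPM (log2 change -1.24), and the lysosomal enzyme GLA rose (log2 change 1.25).

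S100P, a calcium-binding protein, read 48.3 and 57.8 CPM in siControl and 0.721 and 0.851 CPM in siCREB1, 66.2-fold lower and the deepest fall among the 24 genes of largest change. GPR1, a chemerin receptor, read 19.2 and 22.3 CPM in siControl and 0.856 and 1.499 CPM in siCREB1 (log2 change -4.10, SE 0.21, adjusted p = 4e-09). DMGDH, a mitochondrial enzyme of choline breakdown, read 17.0 and 21.2 CPM in siControl and 1.89 and 2.11 CPM in siCREB1 (log2 change -3.22, SE 0.20, adjusted p = 3e-08). DUSP27, an atypical phosphatase, read 35.2 and 44.0 CPM in siControl and 3.97 and 4.50 CPM in siCREB1 (log2 change -3.20, SE 0.16, adjusted p = 2.8e-09). FAM129A, a stress-responsive member of the amino acid list also called NIBAN1, read 218 and 226 CPM in siControl and 20.3 and 21.03 CPM in siCREB1 (log2 change -3.43), and the unnamed transcript LOC100505633 read 25.7 and 28.2 CPM in siControl and 1.58 and 1.82 CPM in siCREB1 (log2 change -3.97). OR51E2, a receptor of the olfactory family known from prostate tissue, was one of the 5 largest losses in CPM, at 1909.8 and 2013 CPM in siControl and 677 and 679 CPM in siCREB1 (log2 change -1.53, SE 0.069, adjusted p = 1.4e-09). In these 7 genes the libraries of the groups did not overlap, which the rule for choosing them required.

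Among called genes with a mean of at least 8 CPM, the largest single rises were smaller, up to 6.92-fold for BCYRN1. That short RNA derives from an Alu repeat, so its reads are uncertain. BCYRN1 read 3.33 and 2.90 CPM in siControl and 23.1 and 21.5 CPM in siCREB1. CKB, a creatine kinase, read 775 and 616 CPM in siControl and 2647 and 2859 CPM in siCREB1 (log2 change 1.98, SE 0.12, adjusted p = 2.9e-08), which was also one of the 5 largest gains in CPM. RSPO1, a Wnt agonist, read 16.9 and 20.8 CPM in siControl and 79.6 and 75.2 CPM in siCREB1 (log2 change 2.08, SE 0.28, adjusted p = 3.4e-05). TUBA1A, an alpha-tubulin, read 8.47 and 8.92 CPM in siControl and 34.4 and 39.5 CPM in siCREB1 (log2 change 2.104, SE 0.10, adjusted p = 3e-09).

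ADRB1, a beta-adrenergic receptor that couples to cyclic AMP, read 4.53 and 2.45 CPM in siControl and 17.9 and 20.2 CPM in siCREB1 (log2 change 2.28, SE 0.18, adjusted p = 2.7e-07). ABAT, which breaks down GABA, read 8.42 and 4.57 CPM in siControl and 39.3 and 39.0 CPM in siCREB1 (log2 change 2.41), and ALDH1A3, a retinaldehyde dehydrogenase, read 7.61 and 4.01 CPM in siControl and 28.03 and 29.9 CPM in siCREB1 (log2 change 2.13). In these 3 genes siControl library 2 was lower than siControl library 1, and both were below siCREB1. CD24, a surface glycoprotein, read 6.95 and 6.80 CPM in siControl and 27.2 and 25.1 CPM in siCREB1 (log2 change 1.92, SE 0.16, adjusted p = 4.5e-07), and SEPW1, a selenoprotein, read 14.1 and 13.6 CPM in siControl and 62.4 and 40.8 CPM in siCREB1 (log2 change 1.88, SE 0.20, adjusted p = 4.6e-06). HSPA8, a cytosolic chaperone, was among the 5 largest gains in CPM at 2694 and 2328 CPM in siControl and 4026 and 3289 CPM in siCREB1 (log2 change 0.54). MTRNR2L2, a copy of a mitochondrial sequence whose reads are uncertain, was also among them (log2 change 0.66), and was not called without siControl library 1 (adjusted p = 0.102). Together the 12 largest rises took 0.0874% and 0.0724% of gene counts in siControl and 0.321% and 0.329% in siCREB1, and the 12 largest falls took 0.199% and 0.224% against 0.0211% and 0.0180%.

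**Figure D4:**
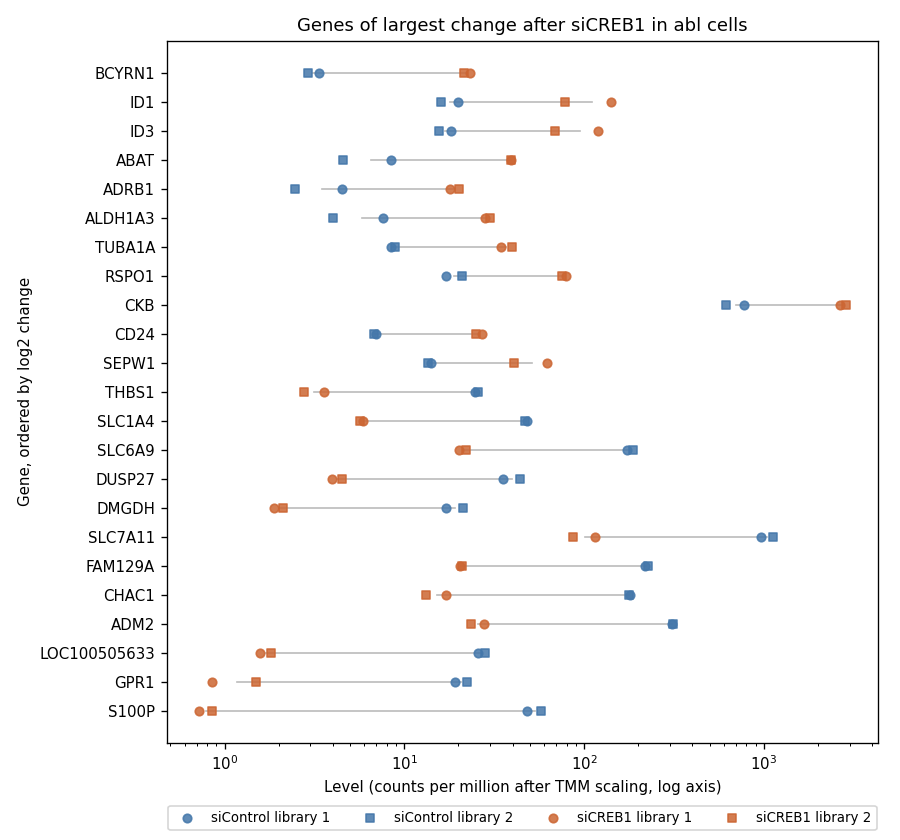
Level in CPM (horizontal axis, log scale) of 11 of the 12 largest rises and the 12 largest falls after siCREB1 in abl, with 1 point per library (blue, siControl; orange, siCREB1; circles, library 1; squares, library 2) and a grey line between the group means. Each gene's siCREB1 points lie on one side of its siControl points, because the rule that chose these genes required it. Levels run from S100P at 48.3 and 57.8 against 0.721 and 0.851 CPM to BCYRN1 at 3.33 and 2.90 against 23.1 and 21.5 CPM.

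Whether these changes were shared with LNCaP was tested as the difference between the lines' responses, for which each line has its own control libraries. That difference was called for 25.5% of the genes tested, with the change higher in abl for 14.8% and lower for 10.8%. In LNCaP itself 17.8% of the genes tested were called higher and 19.8% lower. The targeted gene fell by 0.81 in abl and by 1.28 in LNCaP (81.0 and 85.3 CPM in LNCaP siControl and 38.7 and 29.8 CPM in LNCaP siCREB1). The difference for CREB1 was 0.47 (SE 0.13, adjusted p = 0.021), and it was not called without siControl library 1 (adjusted p = 0.064) or siCREB1 library 1 (adjusted p = 0.0828).

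Amino acid response genes differed between the lines in 23 of 25 cases, each with the lower change in abl, and their LNCaP median was 0.19. ER chaperones differed in 21 of 26, amino acid transporters in 11 lower and 3 higher of 18, tRNA synthetases in 12 lower and 4 higher of 20, and serine genes in 13 lower and 2 higher of 21. ATF4 was at 237 and 249 CPM in LNCaP siControl and 243 and 250.5 CPM in LNCaP siCREB1, and its change differed from that in abl by -1.21 (SE 0.081, adjusted p = 3.4e-07). ASNS was at 76.6 and 83.5 CPM and 65.5 and 68.3 CPM there, a difference of -2.02 (SE 0.11, adjusted p = 4.8e-08). DDIT3 rose in LNCaP from 31.5 and 36.5 to 50.7 and 50.2 CPM (log2 change 0.58) and differed by -2.95 (SE 0.16, adjusted p = 5.6e-08). PHGDH was at 393 and 393 CPM in LNCaP siControl and 325 and 331 CPM in LNCaP siCREB1, a difference of -1.14 (SE 0.077, adjusted p = 3.5e-07). In these 4 genes the LNCaP libraries of both groups lay below the abl siControl libraries.

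Mitosis genes fell in both lines and less in abl, with 40 of 40 called lower in LNCaP at a median of -2.66, and the difference was called for 36 of 40. TOP2A read 49.4 and 47.5 CPM in LNCaP siControl and 2.58 and 3.98 CPM in LNCaP siCREB1, and its change was higher in abl by 1.93 (SE 0.25, adjusted p = 8.3e-05). Replication genes parted: 27 of 40 fell in LNCaP and 1 rose, and 24 had a higher change in abl and 2 a lower one, or 1 without siControl library 1. PCNA changed by -0.20 in LNCaP and 0.51 in abl, a difference of 0.71 (SE 0.11, adjusted p = 0.0003). UHRF1 changed by -1.03 in LNCaP and 1.42 in abl, a difference of 2.45 (SE 0.18, adjusted p = 8.2e-07).

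The respiratory chain rose in LNCaP as well, with 39 of 55 genes higher and 2 lower at a median of 0.30, and 36 of 55 had a higher change in abl. Of 72 ribosomal protein genes 43 rose in LNCaP, at a median of 0.23, and 43 had a higher change in abl, a count that was 27 without siControl library 2 and 17 without siCREB1 library 1. Interferon-stimulated genes rose in LNCaP in 29 of 31 cases at a median of 1.34, and 20 of 31 had a lower change in abl, 10 without siControl library 1. OAS1 was at 2.06 and 1.60 CPM in LNCaP siControl and 13.8 and 11.3 CPM in LNCaP siCREB1. Androgen response genes had a higher change in abl in 12 of 32 cases and a lower one in 1, or 2 with DESeq2.

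Of the 24 genes of largest change, all 12 falls and 8 of the 12 rises differed from LNCaP. They were chosen for their change in abl, which enters the difference. S100P, GPR1, DMGDH and DUSP27 were at most 2.21 CPM in every LNCaP library, which leaves little room to measure a fall there. THBS1, at 28.8 and 24.9 CPM in LNCaP siControl and 32.9 and 30.3 CPM in LNCaP siCREB1, differed by -3.23 (SE 0.26, adjusted p = 1.7e-06), and FAM129A, at 22.7 and 27.0 CPM and 30.3 and 25.4 CPM, differed by -3.60 (SE 0.15, adjusted p = 6.8e-09). CD24 fell in LNCaP from 78.5 and 84.6 to 54.5 and 43.0 CPM and rose in abl, a difference of 2.66 (SE 0.20, adjusted p = 1.1e-06). TUBA1A was at 182 and 175 CPM and 173 and 175 CPM in LNCaP, a difference of 2.14 (SE 0.13, adjusted p = 1.5e-07). For BCYRN1, RSPO1, ID1 and ID3 the difference was not called, at 0.041, 0.61, -1.79 and -1.74.

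**Figure D5:**
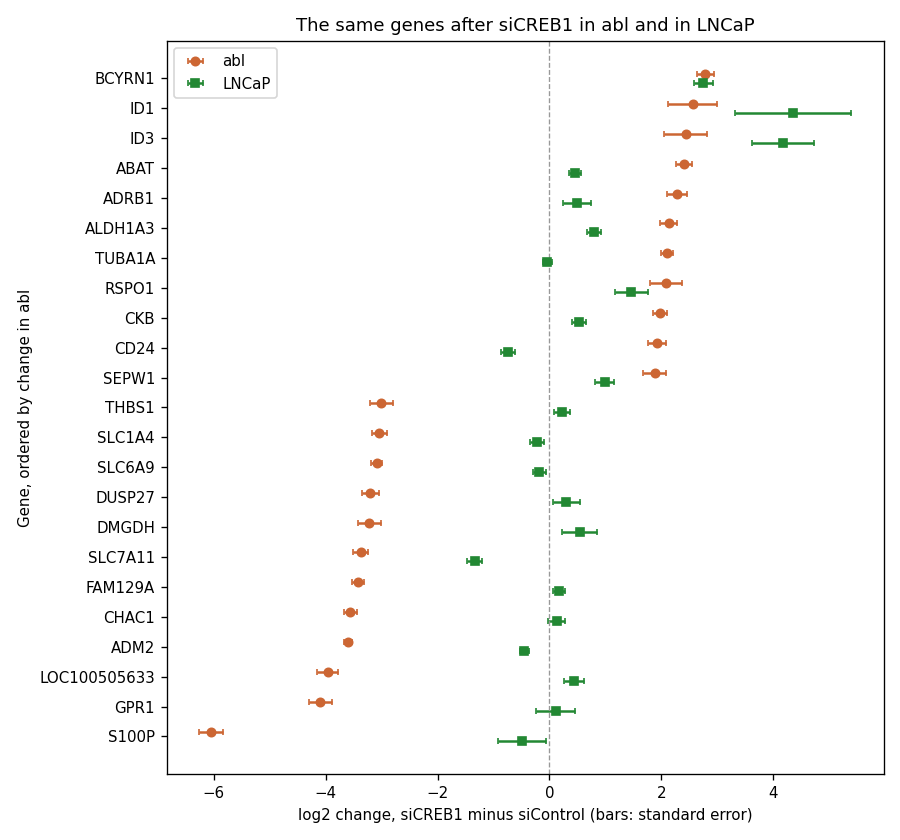
Log2 change after siCREB1 (horizontal axis) for 23 of the 24 genes of largest change in abl, in abl (orange circles) and in LNCaP (green squares), with standard errors from edgeR as bars. The 12 falls lie between -6.05 and -3.00 in abl and between -1.34 and 0.54 in LNCaP, and BCYRN1 lies at nearly the same place in both lines.

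Markers of prostate luminal cells were present: 18 of 18 were tested, 8 rose and 3 fell (ESRP1, CDH1 at -0.75 and EPCAM at -0.55), and their summed counts ran from 44439 to 187735 per library. Of the luminal markers 44.4% rose and 16.7% fell, beside 27.5% and 23.7% of all tested genes. The shares were 22.2% and 22.2% for the tested basal markers below and 50% and 25% for the tested neuroendocrine ones. Of 12 basal markers 9 were tested, and 2 rose (NGFR, with at most 4 counts in a library, and LAMA3 at 0.16) and 2 fell (ITGA6 at -0.51 and DST at -0.45). DST lost its call without siControl library 1 or siCREB1 library 2 (adjusted p = 0.124 and 0.0976), which left 1 fall in each fit. The 2 rises were called in none of the fits without 1 siControl library or without siCREB1 library 1. Among 14 neuroendocrine markers 8 were tested, 4 rose (among them SYT4, NTS and ENO2) and 2 fell (CALCA and SYP). SYP was not called with DESeq2 (adjusted p = 0.0833), with the 4 abl libraries alone (adjusted p = 0.0609) or in thinned libraries (adjusted p = 0.052). NTS was not called in thinned libraries (adjusted p = 0.395). INSM1, SST and GRP were at 0 in every abl library, and CHGA reached at most 3 counts. SYT4 (adjusted p = 0.0586) and NTS (adjusted p = 0.213) lost their calls without siControl library 1. In that fit 1 marker of this list rose, and when siControl library 2 or siCREB1 library 2 was left out 1 fell.

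Of 13 mesenchymal markers 8 were tested, with VIM (11.1 and 6.69 CPM in siControl and 35.9 and 26.4 CPM in siCREB1, log2 change 1.67) and SNAI1 (log2 change 0.81) higher and THBS1 and FN1 (log2 change -0.57) lower. These shares, 25% and 25%, lay near the 27.5% and 23.7% over all tested genes. SNAI1 lost its call without siControl library 2 or siCREB1 library 1 (adjusted p = 0.131 and 0.321), and FN1 without siCREB1 library 2 (adjusted p = 0.0699). Fibroblast markers summed to 153 to 583 counts and COL1A2, DCN and FAP were at 0, with COL3A1 called higher (log2 change 1.18). Blood and endothelial markers summed to 185 to 780 counts, with HBA1 and CDH5 at 0, PTPRC called higher (log2 change 1.17) and LYZ lower (log2 change -0.75), and neither call held in every fit that left out 1 library.

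Neutrophil markers summed to 289 counts in siControl library 1 and to 30, 38 and 43 counts in the other 3 libraries. CSF3R had 87 counts in that library and at most 2 elsewhere, S100A8 had 20 and 0, and S100A9 had 88 and at most 7. They were among the 4 of 5 tested that were called lower, but 1 was called without siControl library 1 and 0 without either siCREB1 library or with DESeq2. MNDA was at 0. The part of such RNA in other results was not tested.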

How the data were processed

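RNA of abl and LNCaP cells was sequenced after siCREB1, siControl or an siRNA against FOXA1. Per the submitters' processing notes, the tools were CASAVA 1.8, TopHat2 2.0.8, Bowtie2 2.1.0, HTSeq 0.5.3p9 and edgeR 3.0.6 on hg19, and the deposited tables hold whole-number read counts per gene. The labels' protocols give a TruSeq RNA kit, which does not mark strand, so reads of a gene and an overlapping antisense gene cannot be told apart. The authors' deposited table of this comparison gives log2 fold changes and p-values. It lists 7997 genes, of which 7940 were tested here: 95.8% of them passed the present test, and each kept its sign. Reads outside genes (56.0 to 58.0% of each abl library) and ambiguous ones (0.774 to 0.924%) were left out.

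All 12 libraries, 2 per group, were modelled together in edgeR 4.0.16 under R 4.3.3 (TMM, filterByExpr, quasi-likelihood F-test, Benjamini-Hochberg). A gene was called at an adjusted p below 0.05, and the SE is the log2 change divided by the root of F. The 2 count columns of a sample were taken as 2 libraries, and SIC in their headers was read as siControl. The script was tested on simulated data. Ratios of few counts have exact intervals.

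Genes were named by rule: the 12 largest changes each way among called genes with a mean of at least 8 CPM, at least 10 counts per group and groups that do not overlap, the 5 largest gains and losses in CPM, the 3 largest changes of each list, and defining members. The lists and members were chosen with earlier results of these data known. Alternatives were other scalings, no filter, DESeq2 1.42.0, thinning to the shallowest library, the 4 abl libraries alone, the replicate block and leaving out each library. Peaks of the series were not used here, and some genes that the rule names are not reported here.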

Additional observations from a re-analysis of the deposited data

Results flagged for a closer look

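Of CREB1, FOXA1 and the reported genes of largest change, 20 differed between abl and LNCaP in their change after siCREB1. The test was edgeR's quasi-likelihood test of the difference itself, at an adjusted p below 0.05. Other genes described above also differed and are not repeated here. The values are log2 changes in abl minus those in LNCaP. CREB1 differed by 0.47, with the smaller fall in abl. Among genes that rose in abl the difference was 2.66 for CD24, 2.14 for TUBA1A, 1.95 for ABAT, 1.78 for ADRB1, 1.45 for CKB, 1.33 for ALDH1A3 and 0.90 for SEPW1. The SEPW1 difference was not called without either siControl library or without siCREB1 library 1 (adjusted p from 0.0604 to 0.125).

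Among genes that fell in abl the difference was -5.56 for S100P, -4.40 for LOC100505633, -4.21 for GPR1, -3.76 for DMGDH and -3.70 for CHAC1. It was -3.60 for FAM129A, -3.499 for DUSP27, -3.23 for THBS1 and -3.15 for ADM2. The amino acid carriers SLC6A9, SLC1A4 and SLC7A11 differed by -2.91, -2.82 and -2.04.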

How the results depend on the processing

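The number of genes called ranged from 6436 to 8054 over all settings, with 8054 under the replicate block, 6857 with DESeq2 and 6436 to 6870 when 1 library was left out. The number whose change differed from LNCaP ranged from 3001 to 4101. The replicate numbers are those in the headers of the count tables, nothing says that they mark a shared culture or day, and the libraries' deviations correlated at 0.064 over 10232 genes, so the block is a setting and not a pairing. Under the replicate block E2F1 (adjusted p = 0.053) lost its call. The differences of ID1 and ID3 from LNCaP were called under it, at -1.94 (adjusted p = 0.0040) and -1.82 (adjusted p = 0.00024), and no other call on a single gene described here changed. The ID3 difference was also called with no filter on low counts, at -1.73 (adjusted p = 0.0081), and without siCREB1 library 1, at -2.20. The cause of the reversals below was not tested. None of the genes listed in them passed the test except S100A9. Under DESeq2's size factors in edgeR the log2 change was -0.0022 for PRKACA, -0.0061 for SREBF2 and -0.0080 for NDUFB5. With DESeq2 it was -0.0032 for SREBF2 and -0.0049 for NDUFB5. In thinned libraries it was -0.0042 for KLK3, -0.015 for PRKACA and -0.029 for SREBF2. With the 4 abl libraries alone it was -0.0029 for SREBF2 and -0.0039 for NDUFB5. When 1 library was left out the log2 change ranged from -0.067 to 0.0097 for ATP5B, from -0.25 to 0.63 for CDKN1A and from -1.77 to 0.32 for CDSN. It ranged from -0.047 to 0.11 for FOXA1, from -0.0069 to 0.044 for NDUFB5 and from -0.077 to 0.14 for NDUFS1. It ranged from -0.048 to 0.095 for PRKACA, from -0.029 to 0.19 for RPL28, from -3.35 to 1.05 for S100A9 and from -0.028 to 0.071 for SREBF2. The BCYRN1 difference from LNCaP ranged from -0.027 to 0.18. S100A8 gave no value without siControl library 1, where all its counts lie. The second siControl library, with 9092597 gene counts, limits what can be seen for genes of low level.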
